A study of Saccharomyces cerevisiae with 4 samples.

Results

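The 7 a-cell specific mating genes of budding yeast are MFA1, MFA2, STE2, STE6, BAR1, AGA2 and ASG7, chosen by their systematic identifiers from a table of 6679 genes, and all 7 were listed. RNA was measured in 4 libraries of *Saccharomyces cerevisiae* strain SK1 with a wild-type genotype, grown in rich medium and harvested in exponential growth. Ethanol alone was given to the vehicle libraries (n = 2), in the volumes that carry 20 nM or 40 nM. The compound labelled bEST was given at 20 nM or 40 nM to the inducer libraries (n = 2). The comparison asks what high levels of spliced HAC1 mRNA, the message of the factor that drives the unfolded protein response, do in vegetative cells. The labels give neither ploidy, mating type nor the construct that drives HAC1, nor whether cultures were separate, so p-values measure only the spread between these libraries, which may be technical.

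Yeast mates between cells of type a and type alpha, each of which secretes a pheromone and carries the receptor for the other one. In a cells the transcription factor Mcm1 drives the a-specific genes. In alpha cells, and in a/alpha diploids, the protein alpha2 binds with Mcm1 to an operator before these genes and represses them through Tup1 and Cyc8. The transcription factor Ste12 raises many mating genes when pheromone is present.

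The operator sequences are shown because they are the known control element of the family. They were read from the R64 reference of strain S288C, not from SK1, in the 500 bases before each start codon, and are written 5′ to 3′ on the gene strand. Capitals mark the outer TGT and ACA of the alpha2 sites and the CC and GG of the Mcm1 core.
MFA1: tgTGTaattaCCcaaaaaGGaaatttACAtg
MFA2: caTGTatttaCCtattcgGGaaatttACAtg
STE2: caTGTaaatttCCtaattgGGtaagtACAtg
STE6: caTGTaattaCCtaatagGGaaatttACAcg
BAR1: caTGTaattaCCgtaaaaGGaaattACAtg
AGA2: caTGTaatttCCgaatacGGtaattACAcg
ASG7: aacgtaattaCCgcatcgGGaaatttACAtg

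In R64 these stretches lie at chrIV:1384942-1384972 (MFA1, plus strand), chrXIV:352163-352193 (MFA2, plus), chrVI:82351-82381 (STE2, plus), chrXI:46477-46507 (STE6, minus), chrIX:322078-322107 (BAR1, plus), chrVII:437102-437131 (AGA2, minus) and chrX:101905-101935 (ASG7, minus). The 7 genes thus sit on 7 different chromosomes. The operator was searched on both strands as TGTNNNNNCCNNNNNNGGNNNNNACA, TGTNNNNNCCNNNNNNGGNNNNNNACA or TGTNNNNNNCCNNNNNNGGNNNNNACA, letters written with these promoters in view. It was found before 6 of the 7 genes, the printed stretches starting between -298 (AGA2) and -212 (STE6), counted back from the start codon. It occurred before 13 of 6006 nuclear genes in all (0.216%), at 10 distinct places of which 6 were those of MFA1, MFA2, STE2, STE6, BAR1 and AGA2. ASG7 had no match, but its stretch from -156 to -126 holds the Mcm1 core and the right alpha2 site at the spacing found in MFA1, and lacks the left TGT.

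Shorter motifs were searched in the same windows and on both strands. The pheromone response element TGAAACA, the binding site of Ste12, was present before all 7 genes, against 12% of all promoters. The alpha2 site CATGTAA was present before all 7, against 6.28%; in 6 of them it overlaps the operator. The Mcm1 core, CC and GG with 6 bases of any kind between them, was present before all 7, against 49.2%. Of the elements bound by Hac1, CAGCGTG was found before STE2 and STE6, against 2.33% of promoters, and TACGTG before MFA2, against 13.1%. The CAGCGTG of STE6 begins at -185 and overlaps the end of its operator. MFA1, BAR1, AGA2 and ASG7 held neither of these letters in this window.

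**Figure D1:**
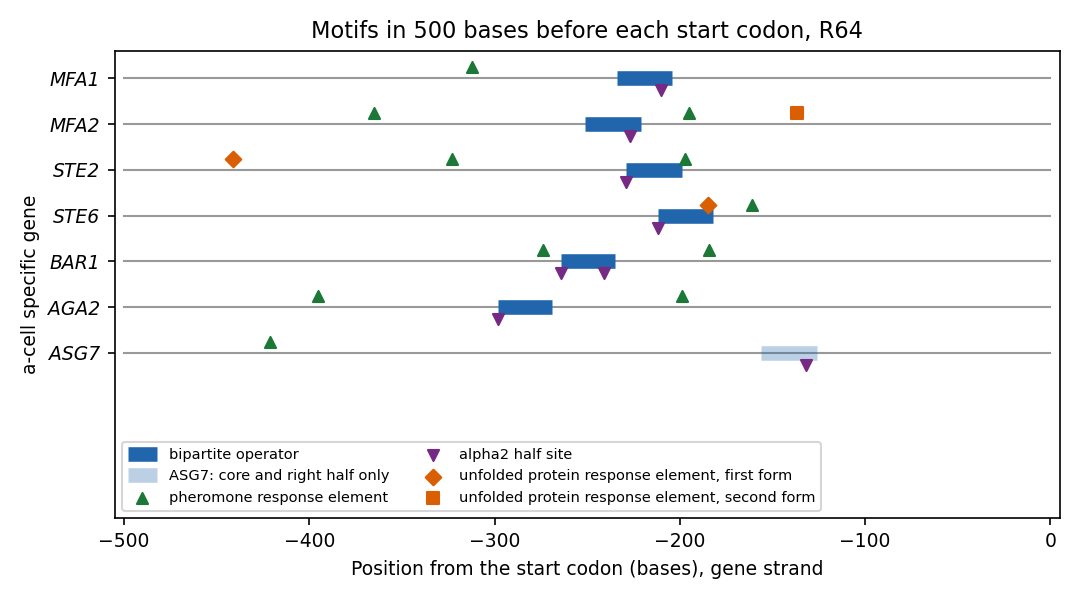
Motifs before the 7 a-specific genes in R64, with the position in bases from the start codon on the horizontal axis and 1 line per gene. Bars are the bipartite operators (pale for ASG7, which lacks the left alpha2 site), triangles pointing up the pheromone response elements, triangles pointing down the alpha2 sites, and orange symbols the 2 forms of the unfolded protein response element; the operators of 6 genes start between -298 and -212.

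With inducer 6 of the 7 genes rose, MFA1, MFA2, STE2, STE6, BAR1 and AGA2, with log2 fold changes from 1.96 to 3.59. ASG7 did not pass the test. In these 6 genes both inducer libraries lay above both vehicle libraries. Of 5317 genes tested, 2.48% were called higher and 0.733% lower at an adjusted p under 0.05, and 23.0% had both inducer libraries above both vehicle libraries. The median log2 fold change was 2.41 over the 7 genes and -0.02 over all tested genes. All 7 passed the filter of a mean of at least 5 RPKM, which is reads scaled to gene length and library depth, but STE6 and ASG7 did so only through the inducer libraries. In bulk RNA, more cells that transcribe a gene and more RNA per cell cannot be told apart.

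Fold changes compare log2(RPKM + 1) values, so that changes of low genes are understated, and adjusted p is from limma over all tested genes with the Benjamini-Hochberg method. Values are given for vehicle matched to 20 nM, vehicle matched to 40 nM, inducer at 20 nM and inducer at 40 nM, in that order. HAC1 itself stood at 487, 528, 5922 and 3712 RPKM, higher in both inducer libraries. Recovered depth was 2133000, 2599000, 1183000 and 4161000 reads. For each of the 7 genes the library with the fewest reads was a vehicle library.

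MFA1 and MFA2 each encode a precursor of a-factor, the lipid-modified pheromone of a cells. MFA2 (YNL145W) stood at 16.4, 20.2, 222 and 240 RPKM. Both inducer libraries were far above both vehicle libraries and close to each other. The log2 fold change of MFA2 was 3.59 (SE 0.23, adjusted p = 0.00177), the 18th highest of all tested genes. The vehicle values rest on 2 and 3 reads and the inducer values on 15 and 57. Pooled over libraries, reads per depth were 12.8-fold higher with inducer, with an exact 95% interval of 5.22 to 40.5 that covers counting error only.

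MFA1 (YDR461W) stood at 745, 370, 1558 and 2695 RPKM, from 81, 49, 94 and 572 reads. It had the highest level of the 7 genes in every library, vehicle included. The groups did not overlap, but libraries within a group differed beyond counting error. The Poisson intervals of the vehicle libraries were 591 to 925 and 273 to 489 RPKM, and those of the inducer libraries 1259 to 1906 and 2479 to 2926 RPKM. The log2 fold change was 1.96 (SE 0.39, adjusted p = 0.0497). Without the 20 nM or the 40 nM inducer library the call was lost (adjusted p = 0.0769 and 0.0773, log2 fold change 2.36 and 1.57).

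Both a-factor genes thus rose from very different starting levels. MFA1 exceeded MFA2 45.3-fold and 18.3-fold in the vehicle libraries and 7.004-fold and 11.2-fold in the inducer libraries, by RPKM. Their longest shared run of coding sequence is 11 bases, shorter than a read of 50 bases, so that a whole read can match only one of them. The authors' length term was the coding length less 60 bases, which leaves 51 of 111 bases for MFA1 and 57 of 117 for MFA2. Levels set against other genes therefore depend on that term. Per full coding length, MFA2 stood at 8.01, 9.86, 108 and 117 RPKM, below STE2 in both vehicle libraries and above it in both inducer libraries, while MFA1, at 342, 170, 716 and 1238 RPKM, remained the highest. Fold changes within a gene do not depend on the length term except through the added 1.

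STE6 (YKL209C) encodes the ABC transporter that exports a-factor. It stood at 3.57, 2.32, 17.1 and 14.1 RPKM, from 29, 23, 77 and 223 reads. The inducer libraries agreed within counting error and lay above both vehicle libraries. The log2 fold change was 2.08 (SE 0.39, adjusted p = 0.0399). The call was lost without the 40 nM vehicle library (adjusted p = 0.0815, log2 fold change 1.85) and without the 20 nM inducer library (adjusted p = 0.095, log2 fold change 1.95).

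STE2 (YFL026W) encodes the G protein-coupled receptor through which a cells sense alpha-factor. It stood at 9.10, 13.7, 59.5 and 68.6 RPKM, from 24, 44, 87 and 353 reads. The groups were well separated, with each pair close together. The log2 fold change was 2.41 (SE 0.27, adjusted p = 0.00518). BAR1 (YIL015W), the secreted protease that degrades alpha-factor, had a similar profile at 7.70, 9.71, 55.1 and 74.7 RPKM. The 40 nM inducer library was the highest, and its Poisson interval of 68.5 to 81.4 RPKM lay just above that of the 20 nM library, 45.3 to 66.3 RPKM. The log2 fold change of BAR1 was 2.75 (SE 0.27, adjusted p = 0.0035).

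AGA2 (YGL032C) encodes the adhesion subunit of a-agglutinin, which is held at the cell surface by Aga1. It stood at 4.596, 7.54, 95.3 and 51.8 RPKM, with the 20 nM inducer library the highest. For AGA2 the log2 fold change reached 3.37 (SE 0.37, adjusted p = 0.00497). Reads were few, at 2, 4, 23 and 44. The pooled ratio of reads per depth was 9.89, with an exact 95% interval of 4.31 to 27.9 for counting error. With any 1 library left out, AGA2, MFA2, STE2 and BAR1 kept their calls.

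ASG7 (YJL170C), whose product acts with the receptor Ste3 to damp pheromone signalling after mating, stood at 4.93, 1.35, 4.45 and 12.2 RPKM. The groups overlapped, since the 20 nM inducer library lay below the 20 nM vehicle library. These values rest on 6, 2, 3 and 29 reads. The fitted log2 fold change of 1.18 (SE 0.67, adjusted p = 0.454) did not pass. Reads for ASG7 were thus few, and its inducer libraries stood apart at 4.45 and 12.2 RPKM. Its pooled ratio of reads per depth was 3.54 with a counting interval of 1.599 to 8.90. Why ASG7 did not pass was not tested.

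**Figure D2:**
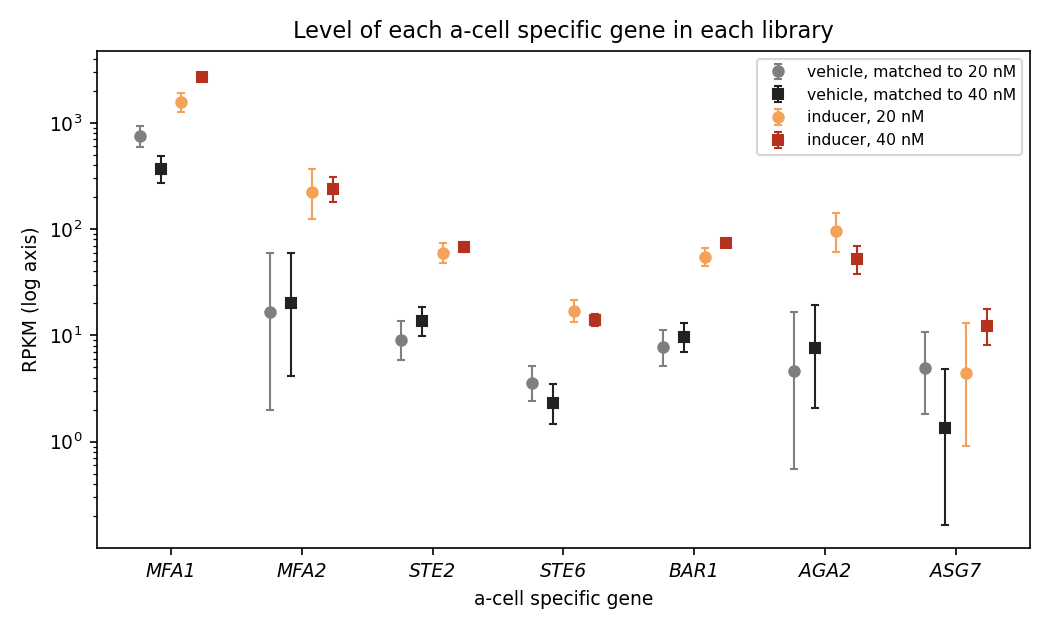
RPKM of each a-specific gene (horizontal axis) in each of the 4 libraries, on a log vertical axis, with Poisson intervals of 95% that cover counting error only. Gray and black are vehicle, orange and red inducer; the 6 genes that passed the test have both inducer points above both vehicle points, and ASG7 does not.

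In the vehicle libraries MFA1 stood apart, and the other members lay between 1.35 and 20.2 RPKM. With inducer the order was MFA1, then MFA2, then AGA2, STE2 and BAR1 at 51.8 to 95.3 RPKM with no order shared by both libraries, then STE6 and ASG7. Because MFA1 made up 94.1% and 87.1% of the summed RPKM of the 7 genes with vehicle and 77.4% and 85.4% with inducer, the sum mainly follows MFA1. Without MFA1 the vehicle libraries summed to 46.4 and 54.9 RPKM and the inducer libraries to 454 and 462 RPKM.

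With 1 library for each dose of each treatment, doses are described without a test. Against its volume-matched vehicle, the log2 ratio at 20 nM and 40 nM was 3.68 and 3.51 for MFA2, 2.58 and 2.24 for STE2, 1.98 and 2.18 for STE6 and 2.69 and 2.82 for BAR1. The ratios of these 4 genes were nearly the same at both doses. For MFA2 the counting intervals of the ratio of reads per depth were wide, at 3.14 to 122 and 3.86 to 59.3. The ratios of the other members were farther apart. MFA1 had 1.06 and 2.86, and AGA2 had 4.10 and 2.63. ASG7 had -0.12 and 2.49. HAC1 had 3.60 and 2.81. Exact 95% counting intervals of the ratio of reads per depth were apart for MFA1, at 1.54 to 2.85 and 5.44 to 9.97. For every other member the intervals at the 2 doses overlapped, as for AGA2 at 5.12 to 181 and 2.50 to 26.3. These intervals cover counting error only, and the vehicle libraries of MFA1 themselves differed beyond it. The doses therefore cannot be put in order for any member, MFA1 included. No relation to the HAC1 ratio is read.

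**Figure D3:**
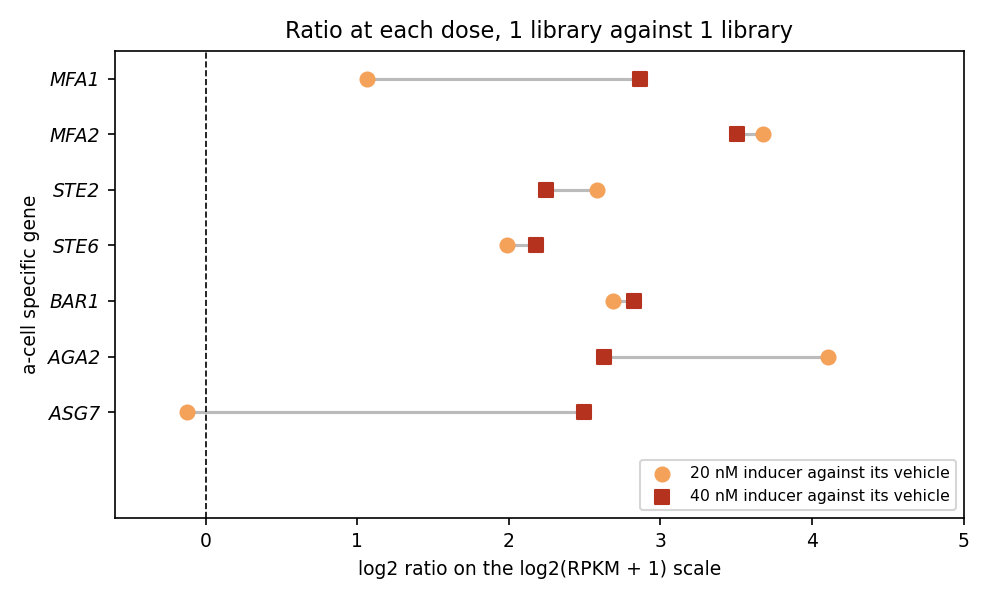
Log2 ratio of the inducer library to the vehicle library of the same volume on the log2(RPKM + 1) scale, 1 library against 1, drawn without counting error. Circles are 20 nM and squares 40 nM; MFA2, STE2, STE6 and BAR1 have close pairs, and ASG7 lies at -0.12 for 20 nM and 2.49 for 40 nM.

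Of 14 immediate neighbours 12 were tested and 0 were called by limma in either direction, with 1 lower at an unadjusted p under 0.05 and 0 called by limma-voom on recovered reads. Their log2 fold changes ran from -0.96 to 0.56 with a median of -0.44. Leaving out 1 library gave 3 lower calls among them. CMI8 beside MFA1 was called without the 40 nM vehicle library (log2 fold change -1.78, adjusted p = 0.0069), and CBT1 beside STE6 (-1.09, adjusted p = 0.0363) and SNL1 beside BAR1 (-0.90, adjusted p = 0.0372) without the 40 nM inducer library. None of the 7 genes overlaps another annotated gene in R64, and none of their 50-base windows occurs elsewhere in that genome. Of the 7 other genes with the operator letters in their window, 1 was called higher, PBP2, at 16.3, 21.5, 48.6 and 54.1 RPKM, a log2 fold change of 1.41 (SE 0.24, adjusted p = 0.0268). Leaving out the 20 nM vehicle library gave PBP2 an adjusted p of 0.151, and leaving out the 20 nM inducer library an adjusted p of 0.062. HSF1, the heat shock transcription factor, stood at 9.98, 6.30, 29.4 and 20.2 RPKM, with a log2 fold change of 1.503 (SE 0.34, adjusted p = 0.0714) that did not pass. HSF1 was called in 4 of 12 alternatives, among them limma-voom on recovered reads, which called PBP2 and HSF1. Of these 7 genes 3 were higher at an unadjusted p under 0.05. Over all 5317 tested genes 869 had such a p in either direction, so these small counts are not read as a result. GYP8, which shares the STE2 operator on the other side, stood at 17.98, 22.0, 14.1 and 22.6 RPKM. PBP2, HSF1, GYP8, HNT2, SWC5, APL3, MPS2, CMI8, CBT1 and SNL1 were named after their values were seen.

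The genes that make a-factor from its precursors, mostly expressed in all cell types, passed the test in 0 of 6 tested by limma, with 1 higher at an unadjusted p under 0.05 and 0 by limma-voom; their median log2 fold change was 0.31. STE24, a protease of a-factor and other prenylated proteins, stood at 183, 176, 299 and 264 RPKM, and was called higher only when the 40 nM inducer library was left out. STE14, the methyltransferase of the prenylated end, stood at 46.9, 53.6, 61.5 and 114 RPKM. The unadjusted count of this list stands beside 869 of 5317 tested genes in either direction. AXL1, a protease of a-factor maturation that is transcribed in haploid cells, was under the filter at 0, 0.97, 4.26 and 4.51 RPKM.

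Of the regulators and mating-type genes, 1 of 9 tested rose, TEC1, a partner of Ste12 at filamentation genes, at 6.69, 7.96, 35.0 and 25.7 RPKM, a log2 fold change of 1.90 (SE 0.29, adjusted p = 0.0178). Without the 20 nM inducer library TEC1 was not called (adjusted p = 0.0593). KAR4, a partner of Ste12 at genes of nuclear fusion, stood at 80.1, 58.0, 153 and 239 RPKM. Both inducer libraries of KAR4 were above both vehicle libraries, and its log2 fold change of 1.47 (SE 0.30, adjusted p = 0.0508) lay just outside the threshold. It was called in 9 of 13 alternatives, with adjusted p from 0.00132 to 0.243 over them; limma-voom called TEC1 and KAR4. In this list 4 genes were called without the 40 nM inducer library, TEC1, KAR4, CYC8 and DIG1, and 3 were higher and 1 lower at an unadjusted p under 0.05. Those unadjusted counts stand beside 869 of 5317 tested genes in either direction. MCM1 stood at 32.3, 33.6, 39.5 and 37.5 RPKM. The row of the a1 gene, whose protein represses haploid-specific genes together with alpha2, stood at 162, 114, 73.7 and 68.1 RPKM. Both inducer libraries were below both vehicle libraries, as in 23.9% of all tested genes, with a log2 fold change of -0.93 (SE 0.25, adjusted p = 0.113) that did not pass. KAR4, CYC8, DIG1, MCM1 and a1 were named after their values were seen. The alpha2 gene cannot be read here: its rows at the MAT and HML loci were listed at 0 in all libraries, and 100% of its 50-base windows are repeated in R64. The windows of alpha1, another gene of these loci, are also 100% repeated. Its MAT row was at 0 throughout, and its HML row stood at 0, 0, 0 and 3.08 RPKM, the last from 6 reads.

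Markers of other cell types moved as well. Of 5 alpha-specific genes 4 rose and 0 fell, with a median log2 fold change of 3.98; MF(ALPHA)1 passed the filter only through the inducer libraries. MF(ALPHA)2, an alpha-factor gene, went from 13.9 and 12.7 to 357 and 204 RPKM, and SAG1, alpha-agglutinin, from 8.67 and 11.2 to 268 and 108 RPKM. STE3, the a-factor receptor of alpha cells, stood at 20.8, 4.27, 73.1 and 67.3 RPKM (adjusted p = 0.0635). AFB1, also alpha-specific, was among the 4, with an adjusted p of 0.0501 when the 20 nM inducer library was left out. The 5 genes summed to 47.7 and 37.2 RPKM in the vehicle libraries and to 837 and 481 RPKM in the inducer libraries, and none was listed at 0 in any library. Genes that define either mating type were higher in the same libraries. Of 8 meiotic genes 3 passed the filter, and HOP1 and SPS4 did so only through the inducer libraries, so that no count is read from this list. HOP1, which encodes an axis protein of meiotic chromosomes, stood at 0.27, 0.44, 13.5 and 12.2 RPKM (adjusted p = 0.0226, and 0.0759 without the 20 nM inducer library). SPS4 stood at 1.96, 2.81, 11.5 and 9.04 RPKM (adjusted p = 0.0986). The other 6 meiotic genes summed to 14.2, 14.2, 15.1 and 15.9 RPKM, and HOP1 and SPS4 together to 2.23, 3.25, 24.9 and 21.2 RPKM. Because this split by the filter sets apart genes that were higher with inducer, nothing is read from the sum of the rest. That sum also mixes genes with unlike values, and IME2 and ZIP1 in it were under the filter and not tested. From vehicle to inducer, mean RPKM went from 1.72 to 3.88 for IME2 and from 4.48 to 3.59 for ZIP1. The part of such cells in the change of the a-specific genes was not tested.

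Of 10 haploid-specific genes 9 were tested and 5 rose. GPA1 and STE18, subunits of the G protein behind both pheromone receptors, went from 5.86 and 7.08 to 41.7 and 59.9 RPKM and from 6.87 and 7.05 to 58.8 and 66.9 RPKM. FUS3, the mating MAP kinase, FAR1 and SST2 were the others. Both FAR1 and NEJ1 passed the filter only through the inducer libraries, so the count of this list is not read against other lists. NEJ1, at a mean of 3.68 RPKM with vehicle and 16.5 RPKM with inducer, did not pass the limma test (adjusted p = 0.0873). When the 20 nM inducer library was left out, FUS3 had a log2 fold change of 2.63 and SST2 of 1.47, and neither was called. Of 10 pheromone-induced genes 4 rose, FUS1, PRM1, FIG1 and AGA1. Of these FUS1, PRM1 and FIG1, at vehicle means of 0.78, 0.22 and 0.97 RPKM, passed the filter only through the inducer libraries, as did FUS2 and FIG2 of the same list, so its count is not read against other lists. AGA1, the anchor of Aga2, went from 8.36 and 5.19 to 232 and 75.5 RPKM, so the RNA of both parts of a-agglutinin rose. FUS1 lost its call when the 20 nM inducer library was left out (adjusted p = 0.0719). None of the 6 silencing genes, which keep the HML and HMR copies of mating-type genes off, was called by limma, by limma-voom or at an unadjusted p under 0.05; ABF1 stood at 47.2, 42.7, 54.2 and 44.3 RPKM and RAP1 at 26.5, 21.4, 42.5 and 29.05 RPKM.

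**Figure D4:**
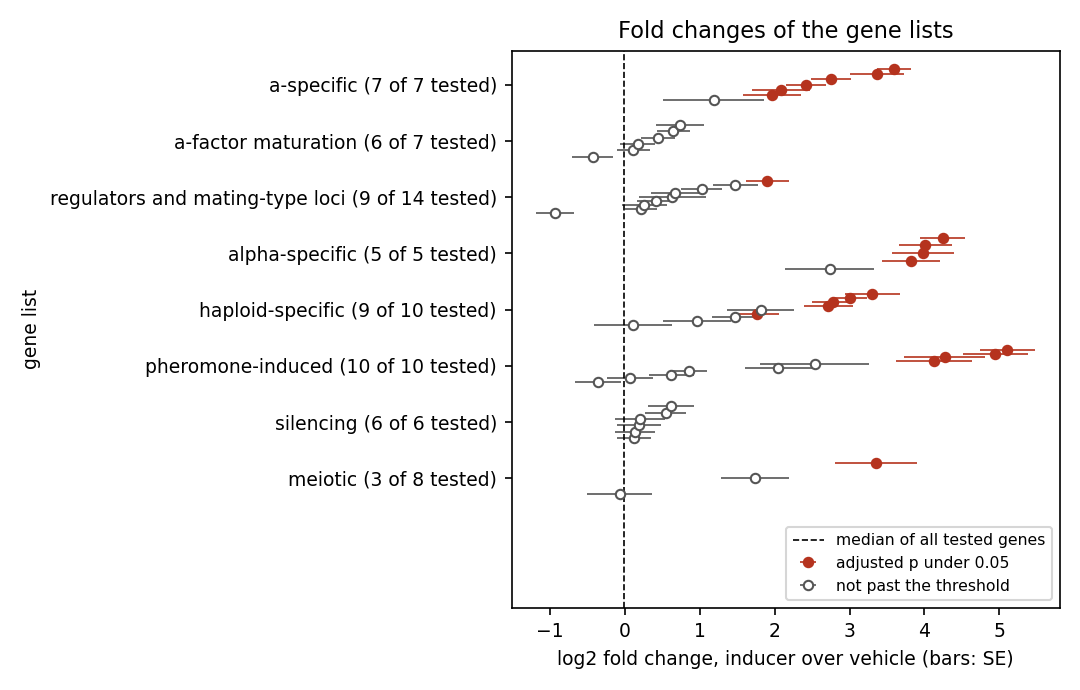
Log2 fold change of inducer over vehicle with its SE for every tested gene of 8 lists, 1 list per row, filled where the adjusted p was under 0.05; the dashed line is the median of all tested genes, -0.02. The a-specific, alpha-specific, haploid-specific and pheromone-induced rows hold 6, 4, 5 and 4 filled points. Of these points 1, 1, 1 and 3 passed the filter only through the inducer libraries, so the counts are not read against each other. The regulator row and the meiotic row hold 1 each, the meiotic one also through the inducer libraries only. The silencing and a-factor maturation rows hold none.

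The profile over the 4 libraries, as log2 values less the gene's mean, was compared with the mean profile of the 7 genes by Euclidean distance. The 5 nearest genes outside the family were DFR1 (0.17), EUG1 (0.20), LHS1 (0.23), PMT3 (0.23) and YLR126C (0.24). EUG1 is a protein disulfide isomerase relative, LHS1 an ER Hsp70 and PMT3 a protein mannosyltransferase, and DFR1 is dihydrofolate reductase. EUG1 stood at 55.5, 59.5, 322 and 371 RPKM. Within the family BAR1 (0.44) and STE2 (0.50) were closest to the mean profile and ASG7 (1.71) the farthest.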

How the data were processed

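The deposited table gives each gene 1 value per library and names no unit. The authors' deposited values behave as RPKM: multiplied by the R64 coding length less 60 bases, 93.2% to 93.7% of values of up to 50 reads lay within 0.05 reads of a whole number, and all 28 values of the 7 genes did. STAR and SAMtools are named in the submitters' processing notes. The counting tool, strand setting and genome build were not given in the sources used here. Per the labels' protocols, libraries were poly(A) selected, directional and read as 50-base single ends. Of 6679 identifiers, 5994 matched R64.

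Inducer was compared with vehicle by limma (version 3.58.1, R 4.3.3). The fit took log2(RPKM + 1) values, a variance trend, no covariate and a minimum mean of 5 RPKM, with Benjamini-Hochberg adjusted p under 0.05 as threshold. The plan named a count test in case the table held counts. Dose counts as spread. A single gene's exact two-sided permutation test of 2 against 2 cannot go below p = 0.333. The script was tested on simulated data as a check of the code only. The simulated spread between libraries was not fitted to these data, so error rates here cannot be read from it. Poisson and binomial intervals are exact, at 95%, and cover counting error only. Alternatives were other pseudocounts, filters, scalings, a dose block, limma-voom on recovered reads and leaving out each library. By rule, genes named are the 7, HAC1, called genes of the lists, up to 2 of a list with no call, and the 5 nearest profiles. Besides the genes marked above as named later, AXL1, alpha1, alpha2, STE3, NEJ1, FUS2, FIG2, SPS4, IME2 and ZIP1 were named outside this rule, after their values were seen. Members, lists and tests were chosen with earlier results of these data known.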

Additional observations from a re-analysis of the deposited data

Results flagged for a closer look

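ASG7 moved in opposite directions at the 2 doses, with a log2 ratio of -0.12 at 20 nM and 2.49 at 40 nM, each 1 inducer library against 1 vehicle library. The difference was not tested. The 20 nM ratio rests on 3 reads against 6 and the 40 nM ratio on 29 reads against 2, and the ratios of reads per depth were 0.901 (exact 95% interval for counting error 0.146 to 4.22) and 9.06 (2.29 to 78.3).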

How the results depend on the processing

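Each of the 7 genes had a positive log2 fold change in every alternative that tested it, 13 in number, or 12 for STE6 and ASG7, which the filter at 20 RPKM removed. MFA2, STE2, BAR1 and AGA2 were called in each of the 13, and ASG7 in none of its 12. MFA1 was called in 7 of 13 and also missed at a pseudocount of 0.1 (adjusted p = 0.0525), with no filter on low values (0.0605), with quantile normalization (0.0694) and with no variance trend (0.0933). STE6 was called in 8 of 12 and also missed at a pseudocount of 0.1 (adjusted p = 0.0504) and with quantile normalization (0.0577). The family count was 4 to 6 throughout. Over all genes, 132 rose and 39 fell. With limma-voom on recovered reads 230 rose and 77 fell, with the dose as a replicate block 243 and 123, with libraries scaled to the same median 65 fell, and with no variance trend 25 fell. Leaving out 1 library gave 113 to 333 rises and 32 to 460 falls, the highest without the 40 nM inducer library. Differences between the 20 and 40 nM libraries correlated at -0.21 between groups over genes. The labels match each vehicle library to a dose by volume, and this correlation cannot decide whether the libraries were handled as pairs. A library alone in its group was taken to vary like the other group. In the block fit and the fits without a vehicle library, the spread was pooled fully over genes. For HAC1 and the 15 called genes of the other lists, 193 of 202 alternative fits left the call as it was, 9 ended it and 0 reversed the direction. The 15 were picked by their call in the main fit of the same libraries, so this share is no independent support. TEC1, AFB1, FUS3, SST2, FUS1 and HOP1 each lost the call without the 20 nM inducer library. The cause of these shifts was not tested. Few reads lie behind the values of ASG7, and of MFA2 and AGA2 in vehicle, which limits their precision.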
